A study of Mus musculus with 10 samples.

Results

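The genes described here are 10 members of the NF-κB pathway, namely 4 subunits of the transcription factor (Nfkb1, Nfkb2, Rela and Relb), 3 genes of the IκB family (Nfkbia, Nfkbie and Nfkbiz) and 3 genes whose products feed back on the pathway (Tnfaip3, Tnip1 and Birc3). They were picked by gene symbol, with earlier results of these data known. All 10 were present among the 18380 genes listed in RNA-seq of ASZ001, a mouse basal cell carcinoma (BCC) line. The line was studied for its resistance to SMO inhibitors. Cells in low-serum medium (154CF with 0.2% chelated FBS) received DMSO, 10 µM SB431542, which inhibits the TGFß type I receptor ALK5, or 20 µM T-5224, which inhibits AP-1, for 24 hours. The SB431542 experiment has 3 DMSO and 3 treated libraries, and the T-5224 experiment has 2 DMSO libraries of its own and 2 treated libraries. All libraries come from this 1 cell line. The methods call the replicates biological samples and speak in general of independent cell cultures, and the labels do not say which culture each library came from.

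NF-κB is a family of dimeric transcription factors that IκB proteins hold in the cytoplasm until the IKK kinase complex marks the inhibitor for destruction. In the canonical branch the dimer is made of Rela and the processed product of Nfkb1, and in the noncanonical branch of Relb and the processed product of Nfkb2. Active NF-κB raises the transcription of several of its own inhibitors, and in skin the pathway serves inflammation, keratinocyte survival and, downstream of ectodysplasin, the formation of hair follicles. RNA-seq measures transcripts, and it does not show how much protein was processed or had entered the nucleus.

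With T-5224, both noncanonical subunits were several-fold higher, Relb at 6.97 times and Nfkb2 at 3.27 times the DMSO mean, and so were the feedback inhibitor Tnfaip3 and the nuclear IκB gene Nfkbiz, at 2.83 and 2.41 times. Nfkbia and Rela were also higher, by smaller factors, while Nfkb1 and Tnip1 did not pass the test. With SB431542, Tnip1 was lower and no other member passed. A gene is called lower or higher here at a Benjamini-Hochberg adjusted p under 0.05 over all genes tested (limma on log2 of RPKM + 0.5), and RPKM is the number of reads scaled to gene length and library size. Genes were tested where their mean over the libraries of a table was at least 1 RPKM. Of the 10 members, 9 passed this filter in the T-5224 experiment and 8 in the SB431542 experiment, and the filter held no member only through its treated libraries.

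Of the 9 members tested with T-5224, 6 were higher, 0 were lower and 3 did not pass. Among all 10809 genes tested in that experiment, 40.3% were higher and 39.4% were lower. Past 2-fold, 4 members were up (Relb, Nfkb2, Tnfaip3 and Nfkbiz) and 0 were down, where 10.4% of all genes were up and 10.6% were down. The median log2 fold change of the 9 members was 0.81, and that of all genes tested was 0.0034. Since the members were chosen with earlier results known, the values over all genes are background and not a test of the set. Of the 8 members tested with SB431542, 1 was lower, 0 were higher and 7 did not pass (limma), and 2 were under 0.05 before adjustment. Over the 10842 genes of that experiment, 10% were lower and 10.2% were higher, while 0.581% were down and 0.231% were up past 2-fold. Before adjustment, 1842 of these 10842 genes were lower and 2070 were higher. No member passed the 2-fold limit with SB431542, with or without adjustment, and the median of the 8 members was −0.05, against 0.0082 for all genes. Each inhibitor was compared only with DMSO of its own table, because the tables were normalized separately, and the difference between the inhibitors' effects was not tested.

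**Figure D1:**
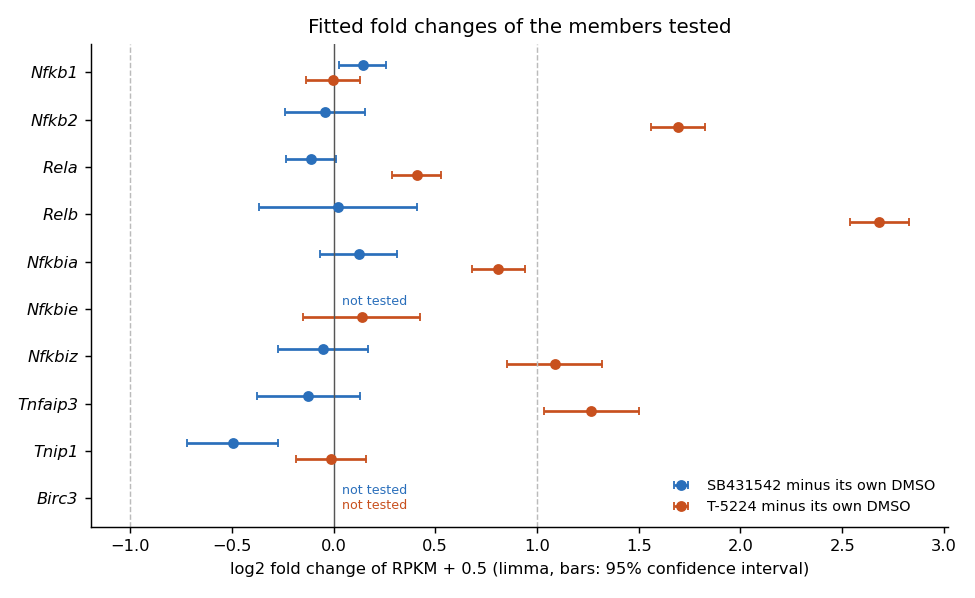
Fitted log2 fold changes of RPKM + 0.5 (x axis) of the members (y axis) with SB431542 (3 against 3 libraries) and T-5224 (2 against 2), with 95% confidence intervals, and dashed lines at 2-fold. With T-5224, Relb at 2.68 and Nfkb2 at 1.69 lie farthest from 0, while with SB431542 only the interval of Tnip1, at −0.50, lies wholly below 0. That of Nfkb1 with SB431542, at 0.14, lies wholly above 0, but Nfkb1 did not pass the test after adjustment.

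To set the members beside the motifs that NF-κB and AP-1 are known to bind, promoter windows from RefSeq (build GRCm38.p6) were read, each from 250 bases before to 50 bases after an annotated start. There were 10 windows for 7 of the 10 members, and Nfkb1, Relb and Nfkbiz had none. The κB consensus was read as a run of G, a purine (A or G), any base, an A or T, and a run of pyrimidines (C or T) ending in C. A match to it was found on either strand in a window of 5 of the 7 members. The AP-1 motif TGANTCA was found in 3 of them. Of all 32851 windows of the same length, 4.51% hold a κB match and 7.81% an AP-1 match. These shares count single windows, while the members are counted as genes. Nfkb2 and Tnfaip3 have more than a single window each, and windows of Nfkb2 overlap. The stretches that hold the matches before the first annotated start of each of these 5 members are shown, since the members differ in whether both motifs lie there. They are written 5′ to 3′ on the strand of the gene, and capitals mark κB and AP-1 matches.
Nfkb2, chr19:46304668-46304736 (+): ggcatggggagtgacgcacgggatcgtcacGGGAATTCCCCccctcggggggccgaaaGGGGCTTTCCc
Nfkbia, chr12:55492648-55492706 (-): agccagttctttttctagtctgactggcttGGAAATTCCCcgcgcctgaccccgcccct
Tnfaip3, chr10:19015411-19015576 (-): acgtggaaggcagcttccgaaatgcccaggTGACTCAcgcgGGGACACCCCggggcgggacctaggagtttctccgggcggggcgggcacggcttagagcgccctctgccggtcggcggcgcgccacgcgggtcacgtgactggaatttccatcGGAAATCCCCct
Nfkbie, chr17:45555514-45555633 (+): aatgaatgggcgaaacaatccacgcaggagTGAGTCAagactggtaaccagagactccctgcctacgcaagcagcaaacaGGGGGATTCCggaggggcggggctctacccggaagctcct
Tnip1, chr11:54962957-54963028 (-): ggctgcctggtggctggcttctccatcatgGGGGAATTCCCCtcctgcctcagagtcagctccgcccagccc

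In Tnfaip3 the AP-1 match spans −136 to −130 from the start, and a κB match begins at −125. In Nfkbie the AP-1 match begins at −156 and the κB match at −106. Nfkb2 has no AP-1 match in the window printed. In a window of another of its starts, an AP-1 match spans −210 to −204 and a κB match ends at −227. The capitals in Nfkb2 and Tnip1 hold κB matches that overlap each other, since the stretch reads nearly the same on both strands. κB matches thus stand before members that were higher with T-5224 (Nfkb2, Nfkbia and Tnfaip3) and before members that did not pass the test there (Nfkbie and Tnip1), and no match was found in the windows of Rela and Birc3. A match describes the letters of a window and does not show that a factor binds there.

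**Figure D2:**
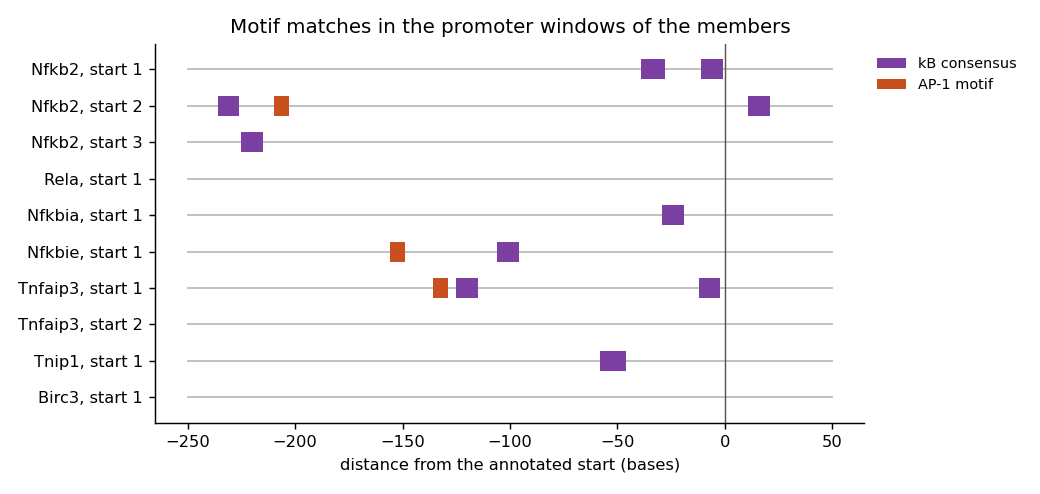
Positions of κB and AP-1 matches (coloured blocks) in the 10 promoter windows of 7 members, by distance from the annotated start in bases (x axis). κB blocks lie in windows of 5 members and AP-1 blocks in windows of 3, namely Nfkb2, Nfkbie and Tnfaip3.

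Relb, the noncanonical subunit that carries the activation domain (mm9 chr7:20191566-20214787), was at 5.04 and 4.87 RPKM in the DMSO libraries and at 34.6 and 34.5 RPKM with T-5224. The groups lay far apart and the treated libraries differed by less than 1 RPKM. The log2 fold change was 2.68 with an SE of 0.067 (limma, adjusted p = 2.62e-11). Nfkb2, which encodes the precursor that is processed to the partner of Relb (mm9 chr19:46379227-46386580), was at 24.3 and 26.8 RPKM with DMSO and at 82.7 and 84.4 RPKM with T-5224. Both treated libraries were above both DMSO libraries, with a log2 fold change of 1.69 and an SE of 0.061 (limma, adjusted p = 4.51e-10). The intervals, 2.54 to 2.83 for Relb and 1.56 to 1.83 for Nfkb2 on the log2 scale, both lay above 2-fold.

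The canonical subunits moved less. Rela, which carries the activation domain of the canonical dimer (mm9 chr19:5637483-5648130), was at 54.9 and 56.2 RPKM with DMSO and at 76.2 and 71.7 RPKM with T-5224. The groups did not overlap, and the mean was 1.33 times that of DMSO (log2 fold change 0.41, SE 0.055, limma, adjusted p = 3.08e-05). Nfkb1, the precursor of the partner of Rela (mm9 chr3:135247619-135354511), was at 23.2 and 24.4 RPKM with DMSO and at 23.7 RPKM in both T-5224 libraries. The treated values lay between the DMSO values, and the interval of the log2 fold change ran from −0.14 to 0.13 (limma, adjusted p = 0.97).

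The balance of subunit transcripts within each library therefore differed between DMSO and T-5224, as given here by ratios of RPKM and without a test. Nfkb2 was at 1.05 and 1.10 times Nfkb1 in the DMSO libraries, and at 3.49 and 3.56 times with T-5224. Relb was at 0.0918 and 0.0866 of Rela with DMSO and at 0.453 and 0.481 of it with T-5224. Rela thus remained the more abundant of the pair, while Nfkb2 went from a level like that of Nfkb1 to a higher one. In the SB431542 experiment, the ratio of Nfkb2 to Nfkb1 was 1.02, 1.14 and 1.12 with DMSO and 0.889, 0.992 and 1.0 with SB431542. The ratio of Relb to Rela ran from 0.0782 to 0.140 with DMSO and from 0.119 to 0.130 with SB431542, so that the groups overlapped for this ratio and did not for the first.

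**Figure D3:**
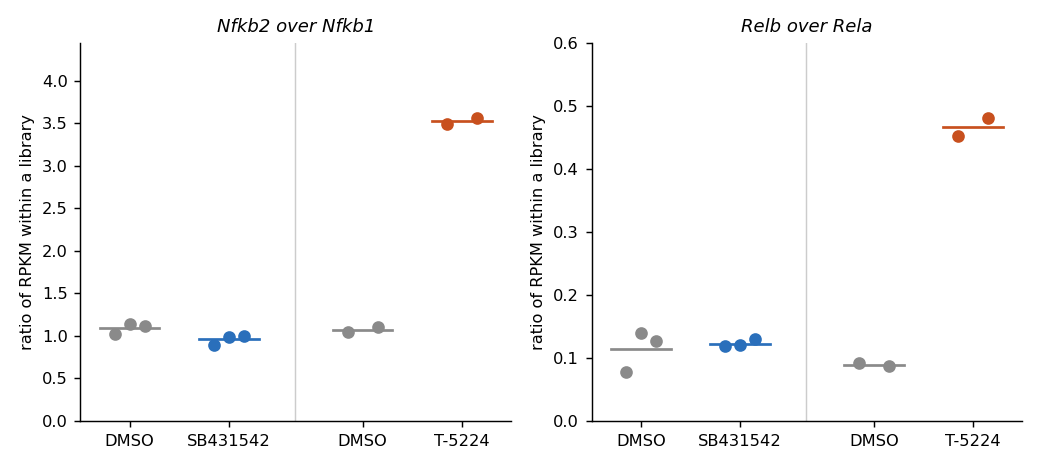
Ratio of RPKM within a library (y axis) of Nfkb2 over Nfkb1 and of Relb over Rela, by group (x axis), with a point per library and a line at the mean, and the SB431542 experiment left of the T-5224 experiment. With T-5224, both libraries lie at 3.49 and 3.56 on the left and at 0.453 and 0.481 on the right, above every DMSO library.

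Among the IκB proteins, Nfkbia, which encodes IκBα, the main inhibitor that resets the canonical pathway (mm9 chr12:56590398-56593634), was at 26.9 and 25.03 RPKM with DMSO and at 46.6 and 45.2 RPKM with T-5224. All treated values were above all DMSO values, at 1.77 times the DMSO mean (log2 fold change 0.81, SE 0.060, limma, adjusted p = 1.94e-07). Nfkbiz, an atypical nuclear IκB that acts as a co-activator at a subset of targets (mm9 chr16:55811488-55839012), was at 1.96 and 2.01 RPKM with DMSO and at 4.42 and 5.16 RPKM with T-5224. The groups were apart, with a log2 fold change of 1.09 and an SE of 0.11 (limma, adjusted p = 2.01e-06). Nfkbiz lay near the 2-fold limit, and its log2 fold change was 0.99 without T-5224 replicate 2, where 3 members in place of 4 were past 2-fold. Nfkbie, which encodes IκBε (mm9 chr17:45692665-45700118), was at 1.29 and 1.26 RPKM with DMSO and at 1.30 and 1.61 RPKM with T-5224. The groups did not overlap by a narrow margin, and the log2 fold change of 0.14 did not pass the test, with an interval from −0.15 to 0.42 (limma, adjusted p = 0.342). Under quantile normalization it was 0.34 and passed (limma, adjusted p = 0.0407).

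Of the feedback genes, Tnfaip3, which encodes the ubiquitin-editing inhibitor A20 (mm9 chr10:18720716-18735463), was at 1.78 and 1.53 RPKM with DMSO and at 4.68 RPKM in both T-5224 libraries. The DMSO libraries were both lower, and the log2 fold change was 1.27 with an SE of 0.11 (limma, adjusted p = 5.24e-07). Tnip1, which encodes a partner of A20 that binds ubiquitin chains (mm9 chr11:54724289-54776419), was at 17.8 and 20.8 RPKM with DMSO and at 19.4 and 18.7 RPKM with T-5224. The treated libraries lay within the range of DMSO, and the interval of the log2 fold change ran from −0.18 to 0.16 (limma, adjusted p = 0.897). Birc3, which encodes a ubiquitin ligase of the TNF receptor complex (mm9 chr9:7848699-7873186), was at 0.453 and 0.324 RPKM with DMSO and at 1.15 and 1.13 RPKM with T-5224. Its mean lay below the filter, so it was not tested in the main comparison. The values rested on 42 and 37 reads with DMSO and on 172 and 162 reads with T-5224, as worked out from RPKM, gene length and library size. With no filter on low values, its log2 fold change was 0.89 (SE 0.11, limma, adjusted p = 0.002), and 7 members in place of 6 were then higher. In that setting, 4685 of all 16719 genes were higher and 4980 were lower.

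**Figure D4:**
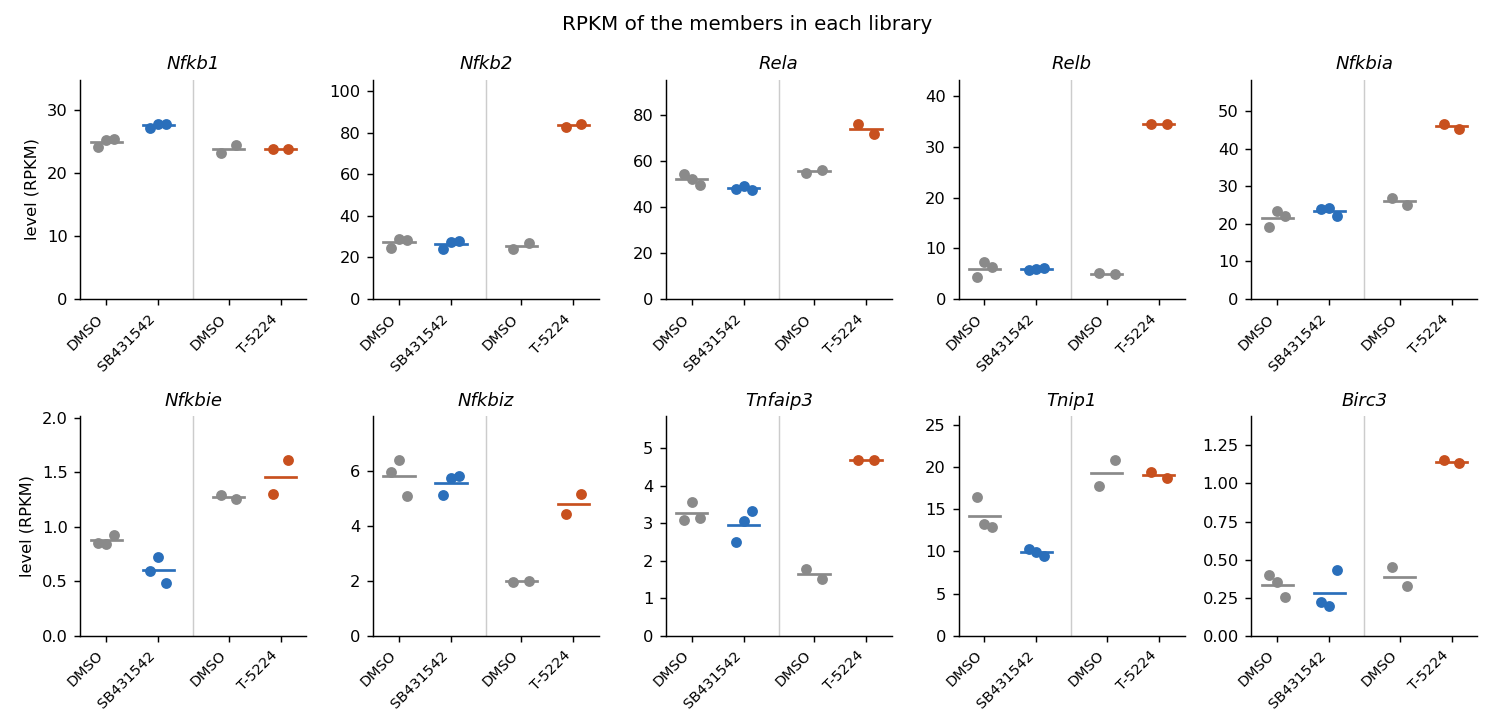
Level of each member in RPKM (y axis, from 0, with its own scale per gene) in every library, by group (x axis), with a point per library and a line at the mean. Against DMSO of their own experiment, all members but Nfkb1 and Tnip1 stand higher in both T-5224 libraries. Among these, Nfkbie stands apart narrowly and did not pass the test, and Birc3 was not tested. Tnip1, Rela and Nfkbie stand lower and Nfkb1 higher in all 3 SB431542 libraries, and of these only Tnip1 passed. The share of all genes whose groups do not overlap was not worked out. By the test, 40.3% of all genes tested were higher and 39.4% lower with T-5224. With SB431542, 10.2% were higher and 10% lower.

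With SB431542, the change that passed the test was that of Tnip1. Tnip1 was at 16.5, 13.2 and 12.9 RPKM with DMSO and at 10.2, 9.95 and 9.43 RPKM with SB431542. Every treated library was below every DMSO library, and the mean was 0.695 of that of DMSO (log2 fold change −0.50, SE 0.096, limma, adjusted p = 0.0133). The call was lost without SB431542 replicate 2 (−0.50, adjusted p = 0.0562) and without SB431542 replicate 3 (−0.47, adjusted p = 0.0661). It held without DMSO replicate 1, the library with the highest level (−0.39, adjusted p = 0.000934).

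Both canonical subunits had groups that did not overlap with SB431542, by small margins and without passing the test. Nfkb1 was at 24.0, 25.2 and 25.4 RPKM with DMSO and at 27.1, 27.8 and 27.7 RPKM with SB431542 (log2 fold change 0.14, SE 0.049, limma, adjusted p = 0.0794). Without DMSO replicate 1, the log2 fold change of Nfkb1 was 0.12 and passed (adjusted p = 0.0375). That library stood farthest from the others of its group, as described further on. Rela was at 54.5, 52.1 and 49.6 RPKM with DMSO and at 47.9, 49.0 and 47.5 RPKM with SB431542 (log2 fold change −0.11, SE 0.053, limma, adjusted p = 0.18).

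For the noncanonical subunits, the SB431542 and DMSO libraries overlapped. Nfkb2 was at 24.6, 28.7 and 28.5 RPKM with DMSO and at 24.1, 27.5 and 27.8 RPKM with SB431542, with an interval of the log2 fold change from −0.24 to 0.15. Relb was at 4.26, 7.31 and 6.27 RPKM with DMSO and at 5.70, 5.88 and 6.17 RPKM with SB431542. Its lowest and highest values were both DMSO libraries, so that the interval was wide, from −0.37 to 0.41. Without DMSO replicate 1, the lowest of these, the log2 fold change of Relb was −0.18 in place of 0.02 (limma, adjusted p = 0.0906).

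The inhibitors and Tnfaip3 did not pass the test with SB431542. Nfkbia was at 19.2, 23.3 and 22.1 RPKM with DMSO and at 24.0, 24.1 and 22.2 RPKM with SB431542 (log2 fold change 0.12, limma, adjusted p = 0.309). Nfkbiz was between 5.06 and 6.37 RPKM with DMSO and between 5.11 and 5.80 RPKM with SB431542, and Tnfaip3 was between 3.10 and 3.56 RPKM and between 2.50 and 3.33 RPKM. The intervals ran from −0.27 to 0.17 for Nfkbiz and from −0.38 to 0.13 for Tnfaip3, both short of 2-fold. Nfkbie, below the filter here, was at 0.855, 0.840 and 0.928 RPKM with DMSO and at 0.597, 0.725 and 0.487 RPKM with SB431542. These groups did not overlap, and with no filter the log2 fold change of Nfkbie was −0.32 (SE 0.096, limma, adjusted p = 0.0901). Birc3 was between 0.254 and 0.400 RPKM with DMSO and between 0.195 and 0.430 RPKM with SB431542, on 24 to 61 reads a library.

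The members spanned a wide range of levels, which RPKM allows to be compared per length. In DMSO of the SB431542 experiment, the order was Rela (52.0 ± 2.46 RPKM, SD, n = 3), Nfkb2 (27.3 ± 2.36), Nfkb1 (24.9 ± 0.743), Nfkbia (21.5 ± 2.14), Tnip1 (14.2 ± 1.96), Relb (5.95 ± 1.55), Nfkbiz (5.79 ± 0.667), Tnfaip3 (3.26 ± 0.257), Nfkbie (0.874 ± 0.0471) and Birc3 (0.336 ± 0.0745). Neighbours whose libraries overlapped were Nfkb2 with Nfkb1 and Relb with Nfkbiz. With SB431542, Nfkb1 and Nfkb2, which overlapped, changed places. In DMSO of the T-5224 experiment, Rela was again first at 55.6 ± 0.935 RPKM (SD, n = 2), and Nfkbia, Nfkb2 and Nfkb1 followed at 26.0 ± 1.35, 25.5 ± 1.73 and 23.8 ± 0.878 with overlapping libraries. Below them came Tnip1 (19.27 ± 2.14), Relb (4.955 ± 0.122), Nfkbiz (1.98 ± 0.029), Tnfaip3 (1.655 ± 0.182), Nfkbie (1.27 ± 0.0219) and Birc3 (0.3885 ± 0.0912). With T-5224, Nfkb2 came first at 83.6 ± 1.20 RPKM, above Rela at 73.9 ± 3.21. Relb, at 34.5 ± 0.0707 RPKM, then stood above Nfkb1. Nfkbiz with T-5224, at 4.79 RPKM, lay below its DMSO mean of the SB431542 experiment (5.79). Tnfaip3 with T-5224, at 4.68 RPKM, lay above its DMSO mean of that experiment (3.26). The tables were normalized separately, and the levels of DMSO in the 2 tables were not tested against each other.

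Other genes of the pathway were taken from lists of known components and are described by their counts. The lists, too, were chosen with earlier results of these data known. These counts are to be read beside the shares over all genes tested. With T-5224, 40.3% of all genes were higher and 39.4% were lower, and past 2-fold 10.4% were up and 10.6% were down. With SB431542, 10.2% were higher and 10% were lower. The list of subunits and IκB proteins outside the members holds Rel, Nfkbib, Nfkbid, Bcl3 and Nfkbil1, the last counted as IκB-like by its name. Of this list, 4 were tested and 3 were higher with T-5224, with a median of 1.23. Bcl3, a nuclear IκB protein that pairs with the processed products of Nfkb1 and Nfkb2, was between 0.526 and 0.581 RPKM with DMSO and between 12.7 and 14.0 RPKM with T-5224 (log2 fold change 3.71, SE 0.10, limma, adjusted p = 5.05e-11). It passed the filter only through its T-5224 libraries, and without it 2 of 3 were higher, 1 of these past 2-fold, with a median of 0.93. Nfkbil1 went from 13.8 ± 0.876 to 40.8 ± 0.569 RPKM (SD, n = 2; log2 fold change 1.53, limma, adjusted p = 1.73e-09). Nfkbib, which encodes IκBβ, went from 17.8 ± 0.220 to 34.5 ± 0.307 RPKM, short of 2-fold on the scale of the fit (0.93, limma, adjusted p = 4.53e-08). Rel, the subunit best known from lymphocytes, was between 5.68 and 6.38 RPKM with DMSO and between 6.03 and 6.73 RPKM with T-5224 and did not pass (limma, adjusted p = 0.463). Nfkbid was below the filter in both experiments. With SB431542, 0 of the 4 passed (limma), and 3 of them, Nfkbil1, Nfkbib and Bcl3, were under 0.05 before adjustment. Before adjustment, 1842 of all 10842 genes tested with SB431542 were lower and 2070 were higher. Bcl3 passed the filter there only through its SB431542 libraries, which leaves 3 genes tested without it, with a median of −0.17.

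Of the 28 IKK subunits, kinases and adaptors, 22 were tested with T-5224. Of these, 12 were higher, 7 were lower and 3 did not pass, 0 of them past 2-fold, and the median was 0.19. Over all genes tested, 40.3% were higher and 39.4% were lower. The 3 subunits of the IKK complex itself, named here after their values were seen, went both ways. Chuk (IKKα), the kinase of the noncanonical branch, went from 10.97 ± 1.03 to 17.9 ± 0.208 RPKM (SD, n = 2; log2 fold change 0.69, limma, adjusted p = 5.96e-06). Ikbkg, the regulatory subunit, went from 8.94 ± 0.204 to 13.2 ± 0.424 RPKM (0.54, limma, adjusted p = 2.58e-05), and Ikbkb (IKKβ), the kinase of the canonical branch, from 15.96 ± 1.21 to 11.97 ± 0.832 RPKM (−0.40, limma, adjusted p = 0.000594). With SB431542, 1 of 24 tested was lower, the interleukin 1 receptor kinase Irak4 (log2 fold change −0.44, limma, adjusted p = 0.0205), and 23 did not pass.

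Of the 13 ubiquitin regulators, 12 were tested with T-5224. Of these, 5 were higher, 4 were lower and 3 did not pass, again 0 past 2-fold, with a median of 0.04. The shares over all genes tested were 40.3% higher and 39.4% lower. With SB431542, 2 of 11 tested were lower. These were Rnf31 (−0.30) and Sharpin (−0.26), both parts of the complex that builds linear ubiquitin chains (limma, adjusted p = 0.0335 for each). The calls of Irak4, Rnf31 and Sharpin were each lost in 3 or 4 of the 6 fits that left out 1 library, with adjusted p up to 0.127.

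Among 23 ligands and receptors, 10 were tested with T-5224, of which 4 were higher, 2 were lower and 4 did not pass, with a median of 0.11. This count of higher genes was near the share over all genes tested, 40.3%. Tnfrsf12a, the receptor of TWEAK and an activator of the noncanonical branch, went from 77.9 ± 0.219 to 192.7 ± 2.39 RPKM (SD, n = 2; log2 fold change 1.30, limma, adjusted p = 7.2e-10). Tnfrsf1a, the main TNF receptor of epithelial cells, went from 45.6 ± 0.184 to 102.1 ± 0.513 RPKM (1.16, limma, adjusted p = 2.48e-09). The third past 2-fold was Tnf, between 0.188 and 0.368 RPKM with DMSO and between 2.50 and 2.95 RPKM with T-5224 (2.06, limma, adjusted p = 1.96e-07), which passed the filter only through its T-5224 libraries. Without Tnf, 3 of 9 were higher, 2 of these past 2-fold, and the median was 0.10. With SB431542, 3 of 10 tested were higher and 0 were lower, namely Tlr3, which senses double-stranded RNA (0.42, limma, adjusted p = 0.023), Edaradd, the adaptor of the ectodysplasin receptor (0.46, adjusted p = 0.0281), and Tnfrsf1a (0.23, adjusted p = 0.0382). Edaradd passed the filter only through its SB431542 libraries, so that 2 of 9 were higher without this gene. Each of these calls was lost in 3 to 5 of the 6 fits that left out 1 library.

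The last list held 28 other genes known to be induced by NF-κB. With T-5224, 12 of 17 tested were higher, 2 were lower and 3 did not pass, and 11 were up and 1 was down past 2-fold, with a median of 1.73. Of the 17, 4 passed the filter only through their T-5224 libraries (Il23a, Lcn2, Ccl20 and Icam1). Without them, 8 of 13 were higher, 7 of these past 2-fold, and the median was 1.08. Ptgs2, which encodes the inducible prostaglandin synthase COX-2, went from 5.56 ± 0.296 to 208.1 ± 4.98 RPKM (SD, n = 2; log2 fold change 5.11, limma, adjusted p = 2.73e-13). Cxcl1, a neutrophil chemokine, was at 1.85 ± 0.713 RPKM with DMSO and at 27.2 ± 3.84 RPKM with T-5224 (3.59, limma, adjusted p = 3.61e-09). Il23a, a subunit of interleukin 23, was at most at 0.092 RPKM with DMSO and at least at 31.0 RPKM with T-5224. Lcn2, which encodes the iron-carrier binding protein lipocalin 2, was listed at 0 in both DMSO libraries and at 4.36 and 4.51 RPKM with T-5224. Gadd45b, a stress gene also known as a TGFß target, went the other way past 2-fold, from 30.9 ± 4.56 to 14.5 ± 0.412 RPKM (−1.06, limma, adjusted p = 5.05e-07).

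With SB431542, 5 of 16 tested targets were higher, 1 was lower and 10 did not pass, and the median was 0.10. Ccl20, a chemokine of dendritic cells and T cells, rose from 3.63 ± 1.04 to 12.4 ± 2.65 RPKM (SD, n = 3; log2 fold change 1.65, limma, adjusted p = 0.0026). Ccl2, a monocyte chemokine that passed the filter only through its treated libraries, rose from 0.620 ± 0.101 to 1.94 ± 0.537 RPKM (1.11, limma, adjusted p = 0.00502). Without Ccl2, 4 of 15 targets were higher, 1 of these past 2-fold, and the median was 0.08. Gadd45b fell from 57.3 ± 7.67 to 31.1 ± 0.620 RPKM (−0.86, limma, adjusted p = 0.00161). These 3 calls held in each of the 6 fits that left out 1 library. Smaller rises were those of Icam1 (0.41), Ier3 (0.38) and Tnfaip8 (0.32), with adjusted p of 0.0307, 0.0153 and 0.0105 (limma), and each was lost in some of these fits.

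**Figure D5:**
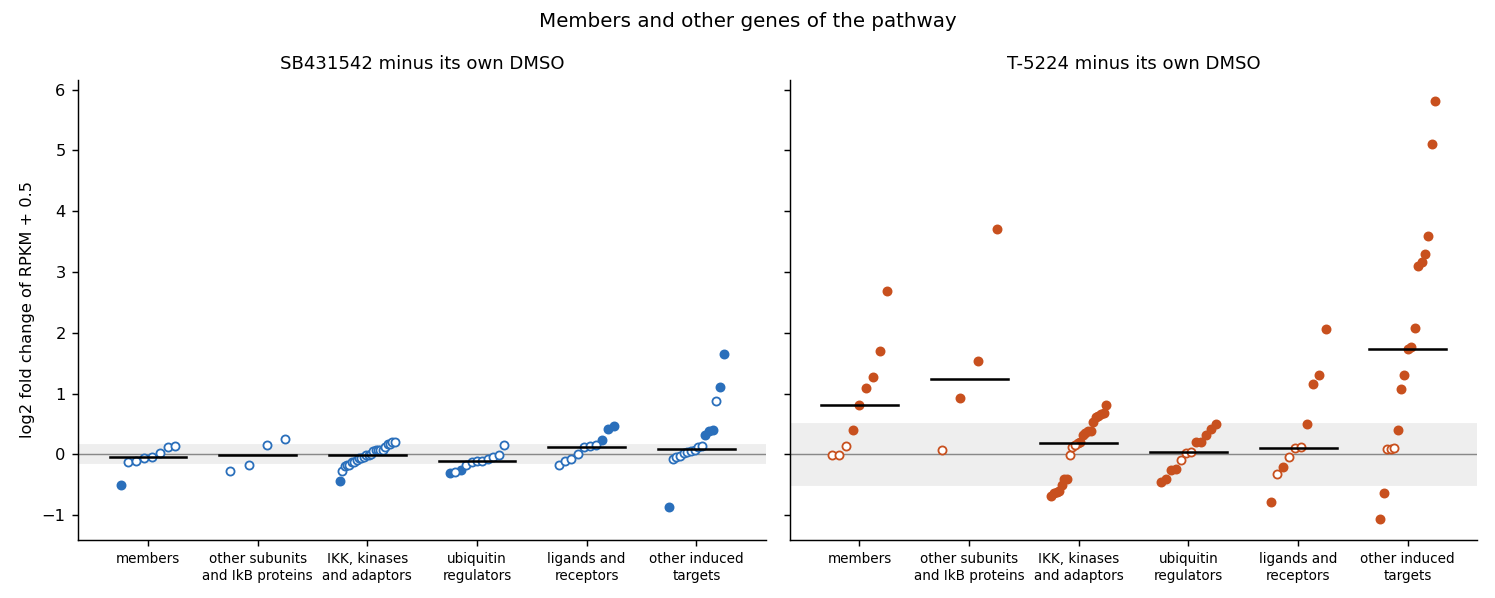
Log2 fold changes of RPKM + 0.5 (y axis) of the members and of the tested genes of 5 pathway lists (x axis) with SB431542 and with T-5224. Filled points passed the test at an adjusted p under 0.05 and open points did not, black lines are list medians, the grey band is the interquartile range of all genes tested and the grey line is their median. With T-5224, the medians of the members (0.81), of the other subunits (1.23) and of the other targets (1.73) lie above the band. These medians include genes that passed the filter only through their T-5224 libraries, and without them the last 2 are 0.93 and 1.08. With SB431542 the list medians lie between −0.11 and 0.13. Without genes that passed the filter only through their SB431542 libraries, the median of the other subunits is −0.17, which lies below the band. Those of the ligands and receptors and of the other targets are then 0.13 and 0.08.

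The libraries held between 31.9 and 51.4 M reads, as worked out from steps in the RPKM of rare transcripts, and a member rested on between 24 and 13625 reads a library. DMSO replicate 1 of the SB431542 experiment stood farthest from its group (SD over genes of its log2 difference from the others 0.272, against 0.123 to 0.190 for the other libraries of that experiment). Basal epithelial markers were abundant, with Krt5 and Krt14 together with 5 others summing to between 9520 and 9680 RPKM with DMSO and between 6730 and 7190 RPKM with SB431542. In the T-5224 experiment the sum was between 12000 and 12600 RPKM with DMSO and between 1780 and 1840 RPKM with T-5224. Most of each sum was Krt5 and Krt14, at means of 6001 and 5708 RPKM with DMSO and 588.9 and 808.5 RPKM with T-5224. Of the 7 markers, 6 were lower with T-5224, and Epcam was higher, from 70.7 to 124.5 RPKM. With SB431542, 3 were lower, Epcam was higher (113.6 to 133.6 RPKM), and Trp63, Cdh1 and Itga6 did not pass. Of 10 immune cell marker symbols, 7 were listed in the SB431542 table and 5 in the T-5224 table. Their sum was between 19.2 and 21.5 RPKM with DMSO and between 35.4 and 35.5 RPKM with T-5224, and between 9.31 and 12.4 RPKM with DMSO and between 9.85 and 10.2 RPKM with SB431542. Nearly all of it was Cd68, a lysosomal protein also found outside macrophages, and Cd14, while Ptprc, which marks all leukocytes, was at 0 in both T-5224 libraries and at most at 0.012 RPKM in any library. Fibroblast markers summed to at most 4.14 RPKM in any library, mostly Dcn. Endothelial markers, mostly Pecam1, summed to between 10.9 and 12.0 RPKM with DMSO and between 4.13 and 4.67 RPKM with T-5224, and between 5.32 and 6.74 RPKM with DMSO and between 2.74 and 2.99 RPKM with SB431542. In bulk RNA, fewer cells of a type and less RNA per cell cannot be told apart, and the part of the keratin, Cd68 and Pecam1 changes in the members' values was not tested.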

How the data were processed

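Total RNA of ASZ001 cells was made into stranded mRNA libraries and sequenced. Per the labels and methods, TopHat was the aligner and mm9 the build, and the authors deposited RPKM from HOMER, in 1 table per inhibitor. Whether counting used strand is not given in the sources used here, and counts were not analysed. All columns of values were used. DMSO columns of the T-5224 table are numbered 1 and 2 where the labels say 4 and 5, so they were assigned to the group only. Rows with a date for a gene name were dropped (22 and 23).

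Genes with a mean of at least 1 RPKM were compared on log2(RPKM + 0.5) with limma 3.58.1 (R 4.3.3; two-sided, moderated, mean-variance trend, Benjamini-Hochberg over all genes tested). A gene was past 2-fold with an adjusted p under 0.05 and a log2 fold change beyond 1 in size. The analysis was tested on simulated data. Gene positions were looked up in the GENCODE annotation of the mm9 assembly, NCBIM37.

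The members and lists were chosen with earlier results of these data known. Genes named were all members and, from each list, those past 2-fold (the 4 largest where more than 4 passed) and, for SB431542, those with an adjusted p under 0.05. Nfkbib, Rel, the IKK subunits and Gadd45b with T-5224, genes singled out for passing the filter only through treated libraries, and cell type markers were named outside this rule, after their values were seen. Alternatives were other pseudocounts, filters, scalings and variance models, a replicate block, and each library left out in turn.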

Additional observations from a re-analysis of the deposited data

How the results depend on the processing

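With SB431542, 1 member passed at an adjusted p under 0.05, 2 did so at an unadjusted p under 0.05, and between 0 and 2 did so when 1 library was left out. The calls over all genes changed with these fits too. Without DMSO replicate 1, where 2 members passed, 1900 of 10844 genes were lower and 2163 were higher. Without SB431542 replicates 2 and 3, where 0 members passed, 491 and 433 genes were lower and 300 and 308 were higher. At an unadjusted p, 1842 of 10842 genes were lower and 2070 were higher. Members with no call changed sign in some of these fits, with log2 fold changes from −0.182 to 0.175 for Relb (−0.007 without SB431542 replicate 3), −0.138 to 0.014 for Nfkbiz (0.001 without SB431542 replicate 1) and −0.114 to 0.023 for Nfkb2. The labels share replicate numbers 1 to 3 in this experiment, but same-numbered libraries did not deviate together (correlations −0.148, 0.151 and −0.095). With a replicate block, 1 member passed, Tnip1 at −0.496 (limma, adjusted p = 0.019), and no member's call changed, while 6 of the 12 list genes named for SB431542 no longer passed. Over all 10842 genes tested, 699 were lower and 572 were higher with this block. In the T-5224 experiment the labels give the groups no shared replicate numbers, while the column names do. Since these numberings conflict, no pairing was tried there.

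With T-5224, 4 members were past 2-fold, and 2 were with a mean RPKM of at least 5, where Tnfaip3, Nfkbiz and Nfkbie were no longer tested. A pseudocount of 1 RPKM left 3, with Nfkbiz at 0.953. Over all genes, 1121 of 10809 were up past 2-fold in the main fit, and 835 of 8199 with a mean RPKM of at least 5. With a pseudocount of 1 RPKM, 984 of 10809 were up past 2-fold. Uncalled genes changed sign with 1 library left out, with ranges from −0.04 to 0.034 for Nfkb1, −0.122 to 0.099 for Tnip1 (0.011 without T-5224 replicate 2) and −0.002 to 0.153 for Rel. Leaving out a library here leaves a group of 1, which is assumed to vary like the other group. The calls of Relb, Nfkb2, Rela and Nfkbia held in every fit run.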
